A study of Mus musculus with 12 samples.

Results

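A set of 10 genes that mark airway basal cells or transitional epithelial cells in the mouse lung is described here: Trp63, Krt5 and Krt15 for basal cells, and Krt8, Krt18, Krt19, Cldn4, Sfn, Mdk and Areg for the transitional state. They were chosen by name from 59136 entries of the count table, all 10 were found, and 9 passed the filter on low counts, Krt5 being the one that did not. RNA was profiled from mouse lung material labelled day 28, in 6 libraries of the WT group (replicates 1, 3, 4, 5, 6 and 7) and 6 of the Mut group (replicates 1, 2, 3, 4, 5 and 7). The design calls the Mut mice IARS1-TYR148CYS/ARG444*, that is, tyrosine 148 changed to cysteine and arginine 444 to a stop codon, while the genotype field of the same libraries reads IARS1 knockdown. The gene encodes the isoleucyl-tRNA synthetase of the cytosol. No treatment beside the day, no sex, no litter and no promoter or Cre driver was given, and the labels name the material both as lung and as primary cells. They do not say that each library is its own mouse, so a p-value here measures the spread between libraries, which may be technical.

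Basal cells are the stem cells of the conducting airway. They carry the transcription factor p63, encoded by Trp63, and the keratins Krt5 and Krt15, which assemble into the filaments of stratified epithelium. In the alveolus, type 2 cells that turn into type 1 cells after injury pass through a transitional state known for the simple keratins Krt8, Krt18 and Krt19, the tight junction protein claudin 4, the cell cycle inhibitor 14-3-3 sigma (Sfn) and secreted factors such as midkine (Mdk) and amphiregulin (Areg). Simple keratins are also made by every other simple epithelium of the lung, so these keratins do not belong to one cell type alone.

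Libraries held 17118716 to 24014890 counted reads. Iars, the symbol of Iars1 in the annotation used, spanned 35.6 to 58.4 CPM (counts scaled by the library total) across WT and 41.4 to 71.6 CPM across Mut, with log2 fold change 0.29 and standard error 0.14 (edgeR quasi-likelihood test, adjusted p = 0.189), so its transcript was not called lower in the libraries labelled knockdown and they are called Mut-labelled here. Lung epithelium was present in every library: 10 alveolar type 2 markers summed to between 17760 and 34998 CPM, and 8 markers of epithelium in general to 829 to 1145 CPM in WT and 851 to 1237 CPM in Mut. Of all entries, 869 of 19004 tested entries were called higher in Mut (4.57%) and 1010 lower (5.31%), at an adjusted p under 0.05.

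Krt15 was higher and Mdk lower in the Mut-labelled libraries, and the other 7 tested genes were not called. That is 2 of the 9 tested genes, beside 9.89% of all entries called in either direction. On unadjusted p-values 4 of the 9 lay under 0.05 (Krt15, Trp63, Krt18 and Mdk), beside 27.7% of all entries. In none of the 9 were the groups fully apart, against 4.58% of all entries (2.18% with all Mut libraries above all WT libraries and 2.39% with all below). The median log2 fold change of the 9 genes was 0.23, with 8 above 0, and that of all tested entries was 0.01. In bulk RNA, fewer cells of a type and less RNA per cell cannot be told apart, and this holds for each comparison that follows.

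**Figure D1:**
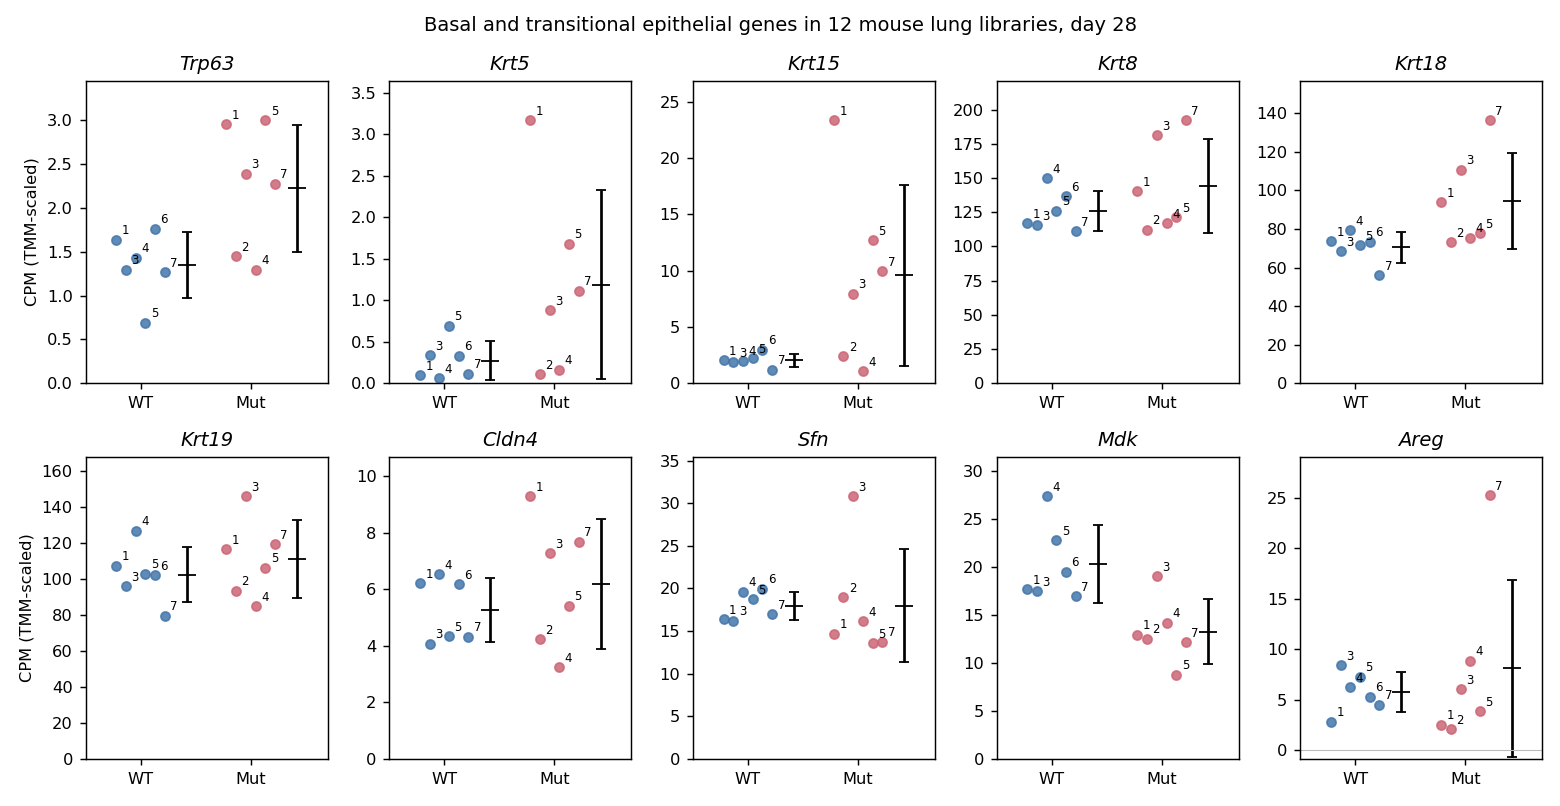
CPM of each of the 10 genes in each library, WT and Mut side by side, with the replicate number beside each point and the mean ± SD (n = 6) as a bar at the right of each group. The axes are linear and differ between panels, and the SD bar of Areg in Mut passes below 0. Krt15 in Mut spans 1.08 to 23.4 CPM while the 6 WT libraries lie between 1.21 and 2.98 CPM, and 5 of the 6 Mut points of Mdk lie under the lowest WT point.

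Compared per length, in the deposited FPKM (fragments per length of transcript and per library total), the order of the mean levels in WT was Krt8 at 65.4, Krt19 at 56.3, Krt18 at 49.9, Mdk at 15.6, Sfn at 11.3, Areg at 4.83, Cldn4 at 2.95, Krt15 at 1.18, Trp63 at 0.163 and Krt5 at 0.126. The simple keratins were thus the abundant members and the basal genes the rare ones. In Mut Krt18 stood at 64.2 FPKM, above Krt19 at 58.5, and Krt15 at 5.32 FPKM lay near Areg at 6.49. All other values are CPM scaled by the trimmed mean of M-values (TMM), given as mean ± SD with n = 6 in each group.

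Trp63 encodes p63, the transcription factor that basal cells require, and lies on chromosome 16 (25683763 to 25892102, plus strand, GRCm38). It was read at 1.64, 1.29, 1.43, 0.692, 1.76 and 1.27 CPM in WT replicates 1, 3, 4, 5, 6 and 7. In Mut replicates 1, 2, 3, 4, 5 and 7 it was read at 2.95, 1.45, 2.39, 1.3, 3.0 and 2.27 CPM. Mut replicates 1, 3, 5 and 7 lay above every WT library, while Mut replicates 2 and 4 lay inside the WT range. The means were 1.35 ± 0.375 and 2.23 ± 0.724 CPM, and the log2 fold change of 0.73 (standard error 0.25, interval 0.18 to 1.27) was not called by edgeR's quasi-likelihood test (adjusted p = 0.0801). Of 15 other settings 1, DESeq2, called it (adjusted p = 0.0497), as did 1 of 12 fits with a library left out (without Mut replicate 4, log2 fold change 0.83, adjusted p = 0.0436). On log2(FPKM + 1) the log2 difference was 0.11 (adjusted p = 0.307).

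Krt5, the type II keratin that defines basal cells, lies on the minus strand of chromosome 15 (101707070 to 101712898). It was close to the limit of detection, with 2, 7, 1, 14, 6 and 2 reads in WT replicates 1, 3, 4, 5, 6 and 7. The Mut libraries held 59, 2, 17, 3, 32 and 26 reads in replicates 1, 2, 3, 4, 5 and 7. The high libraries were again Mut 1, 3, 5 and 7, and Mut 2 and 4 lay inside the WT range. In all, 32 reads in WT stood against 139 in Mut, or 0.271 and 1.19 mean CPM. In a fit without the low-count filter, over 51918 entries, the log2 fold change was 2.05 (standard error 0.82, interval 0.23 to 3.86) and was not called by edgeR (adjusted p = 0.269). With 1 library left out the gene passed the filter in 7 fits and was called by edgeR in 2 of them (largest adjusted p 0.146). Those 2 left out Mut replicate 2 (log2 fold change 2.31, adjusted p = 0.0421) or Mut replicate 4 (2.27, adjusted p = 0.0366). These are the Mut libraries with the fewest reads of Krt5, so the calls rest on leaving out low Mut values. None of the 3 other settings that held the gene called it.

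Krt15, a type I keratin of basal cells, lies on chromosome 11 (100131758 to 100135928, minus strand). Its WT values were 2.03, 1.87, 2.01, 2.22, 2.98 and 1.21 CPM in replicates 1, 3, 4, 5, 6 and 7. Its Mut values were 23.4, 2.41, 7.94, 1.08, 12.7 and 9.96 CPM in replicates 1, 2, 3, 4, 5 and 7. The same libraries, Mut 1, 3, 5 and 7, lay above all WT libraries, whereas Mut 2 was inside the WT range and Mut 4 was below it, so the groups overlapped. The mean went from 2.05 ± 0.571 to 9.58 ± 8.08 CPM, a 4.65-fold difference (log2 fold change 2.22, standard error 0.57, interval 0.98 to 3.46) called by edgeR's quasi-likelihood test at an adjusted p of 0.0303. Leaving out 1 library at a time gave log2 fold changes of 1.74 to 2.43 and kept the call in 7 of 12 fits, the 5 others being those that dropped WT 3, WT 4, WT 5, WT 7 or Mut 5 (largest adjusted p 0.0719). The call was also lost in limma-voom (log2 fold change 1.67, adjusted p = 0.128) and in limma on log2(FPKM + 1), where the log2 difference was 1.19 (adjusted p = 0.142).

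Airway gland markers were high in the same libraries as the basal genes. The airway gland list sums 8 markers, among them Ltf, Dmbt1, Muc5b, Bpifa1, Bpifb1, Lyz1 and Acta2, of which Muc5b, Bpifa1 and Bpifb1 also stand in the airway secretory list. Its sum was 593 to 1058 CPM in WT, and 2517, 2000, 1598 and 2414 CPM in Mut replicates 1, 3, 5 and 7 against 1023 and 607 CPM in Mut replicates 2 and 4. In Mut 3 of its 6 tested genes were called higher, beside 4.57% of all entries. They were lactoferrin (Ltf, log2 fold change 2.14), the airway mucin Muc5b (1.80) and the airway secretory protein Bpifa1 (3.21). Dmbt1 averaged under 1 CPM in both groups. Across the 12 libraries, after the mean of each group was subtracted, Krt15 followed the mean log2 CPM of this list with Pearson's r of 0.89 (permutation adjusted p = 0.0306 over 145 relations) and Spearman's rho of 0.89 (permutation adjusted p = 0.0335), and r was 0.75 without the 2 libraries farthest from the median of Krt15. Krt15 also followed the airway secretory list (r 0.85, rho 0.78, permutation adjusted p = 0.0306 and 0.0370). With the gland score as a covariate, an alternative chosen after the data were seen, the log2 fold change of Krt15 was 0.16 (adjusted p = 0.861). With the score of the airway secretory and ciliated lists it was 0.77 (adjusted p = 0.269). For Trp63 the same covariates left log2 fold changes of 0.14 (gland, adjusted p = 0.802) and 0.35 (secretory and ciliated, adjusted p = 0.376). The gland, secretory and ciliated lists hold markers that were themselves called higher in Mut. Here and below, fits with their scores therefore cannot tell the group difference from the score. The fit with the gland score called 309 entries in all, against 1879 in the main fit. The scores are means of log2 CPM, and the summed CPM of the secretory list alone did not set the libraries apart, at 17652 to 28402 CPM in WT and 14714 to 26697 CPM in Mut. Fat cell markers moved in part with Krt15 too: 3 of 6 tested were called higher, beside 4.57% of all entries. Their sum was 10.4 to 55.2 CPM in WT and 28.1 to 194 CPM in Mut. Their r with Krt15 was 0.76 (permutation adjusted p = 0.0325) and rho 0.67 (permutation adjusted p = 0.113). Heart muscle markers were also high in these libraries: none of 7 was called by edgeR, but their sum was 162 to 716 CPM in WT and 1726, 1103, 1210 and 771 CPM in Mut replicates 1, 3, 5 and 7, against 768 and 271 CPM in Mut replicates 2 and 4. Their r with Krt15 was 0.81 (permutation adjusted p = 0.0199) and rho 0.61 (permutation adjusted p = 0.170), with r of 0.52 without the 2 farthest libraries. The part of these other tissues in the difference of Krt15 was not tested.

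**Figure D2:**
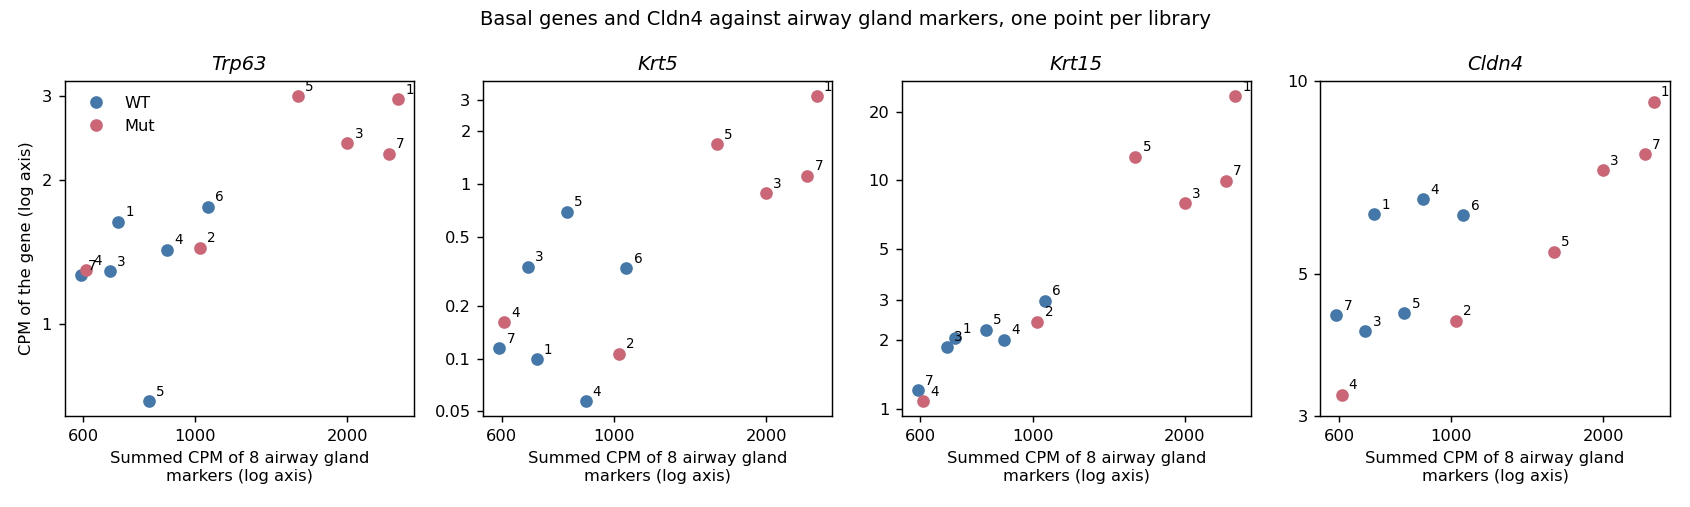
CPM of Trp63, Krt5, Krt15 and Cldn4 against the summed CPM of the 8 airway gland markers, both on log axes, one point per library with its replicate number, WT in blue and Mut in red. Mut replicates 1, 3, 5 and 7, with gland sums of 1598 to 2517 CPM, hold the highest Krt15 values. Mut replicates 2 and 4 have gland sums inside the WT range, and Mut replicate 4 lies below every WT library in Krt15 and Cldn4.

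Of 10 markers of stratified squamous epithelium, only Sbsn was tested, at 14.5 ± 3.37 CPM in WT and 14.6 ± 1.64 CPM in Mut (edgeR adjusted p = 0.965), and it made up most of the sum of the list. Krt4, Krt13, Krt6a, Krt14 and Dsg3 each averaged under 1 CPM in both groups, and the list summed to 14.4 to 21.2 CPM in WT and 14.9 to 20 CPM in Mut. Krt14 went from 0.198 to 0.272 CPM and Krt17, a keratin of activated basal cells, from 0.108 to 0.560 CPM, both too low to be tested. A list of 22 basal cell genes held 17 tested ones, with a median log2 fold change of 0.33 beside 0.01 for all entries. Called higher were 3 of them, Krt15 included, beside 4.57% of all entries, and none was called lower. The others were dystonin (Dst, log2 fold change 0.63, standard error 0.15, adjusted p = 0.0180) and integrin beta 4 (Itgb4, 0.53, standard error 0.13, adjusted p = 0.0231 by edgeR), both parts of the hemidesmosome that anchors basal cells. Other adhesion genes of the list were not called, with log2 fold changes of 0.07 for Itga6, 0.01 for Col17a1, 0.04 for Lamb3 and -0.12 for Bcam. The part of basal cells in the Dst and Itgb4 values was not tested. Dst kept its call with any 1 library left out but lost it in 6 of 15 other settings (largest adjusted p 0.162, with the replicate block), and Itgb4 lost it when WT 3, WT 4, WT 5, Mut 1 or Mut 5 was dropped (largest adjusted p 0.0547). With the secretory and ciliated score Itgb4 was at 0.34 (adjusted p = 0.116), and with the gland score at 0.23 (adjusted p = 0.369). For Perp, a desmosomal target of p63, the log2 fold change was 0.44 (edgeR adjusted p = 0.0804).

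A list of genes that act with or near p63 was tested as well. Grhl2, an epithelial transcription factor, went from 21.9 ± 0.977 to 28.6 ± 6.22 CPM (log2 fold change 0.39, adjusted p = 0.0493 by edgeR), and its call held in only 2 of the 12 fits with 1 library left out, without Mut replicate 3 or 4. With the gland score it was 0.20 (adjusted p = 0.434). Satb1, a chromatin organiser known as a p63 target in epidermis and also abundant in lymphocytes, fell from 36.3 ± 2.14 to 26.4 ± 2.75 CPM (log2 fold change -0.46, adjusted p = 0.00396 by edgeR), with every Mut library below every WT library. All 10 lymphocyte markers were called lower in Mut as well, beside 5.31% of all entries. Their sum was 257 to 406 CPM in WT and 148 to 229 CPM in Mut. The part of lymphocytes in the Satb1 value was not tested.

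Krt8 and Krt18 are the type II and type I keratins that pair in simple epithelium, and they lie 23697 bases apart on chromosome 15 (Krt8 at 101996698 to 102004482 on the minus strand, Krt18 at 102028180 to 102032027 on the plus strand). Krt18 stood at 73.7, 68.4, 79.4, 71.7, 73.4 and 56.1 CPM in WT replicates 1, 3, 4, 5, 6 and 7. In Mut replicates 1, 2, 3, 4, 5 and 7 it stood at 93.9, 73.2, 111, 75.5, 77.9 and 136 CPM. Mut replicates 1, 3 and 7 were above all WT libraries, and replicates 2, 4 and 5 lay inside their range. Means were 70.5 ± 7.89 and 94.6 ± 24.9 CPM, and the log2 fold change of 0.43 (standard error 0.14, interval 0.12 to 0.73) was not called by edgeR (adjusted p = 0.0689). It was called in 2 of 15 other settings, DESeq2 (adjusted p = 0.0462) and the general epithelial score as a covariate (log2 fold change 0.27, adjusted p = 0.0238), and in no fit with a library left out. With the airway secretory and ciliated score it was 0.21 (adjusted p = 0.306), and with the gland score 0.07 (adjusted p = 0.799).

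Krt8 stood at 117, 116, 150, 126, 137 and 111 CPM in WT. Its Mut values were 140, 112, 181, 117, 121 and 192 CPM, and only replicates 3 and 7 exceeded the WT range. The means of 126 ± 14.7 and 144 ± 34.5 CPM differed by a log2 fold change of 0.19 (interval -0.09 to 0.48, edgeR adjusted p = 0.363). Krt19, a type I keratin on chromosome 11, 4881 bases from Krt15 (100140810 to 100148665, minus strand), stood at 107, 96.1, 127, 103, 102 and 79.7 CPM in WT. In Mut it stood at 117, 93.6, 146, 84.9, 106 and 120 CPM, so that only replicate 3 exceeded the WT range. Its log2 fold change was 0.12 (interval -0.15 to 0.39, adjusted p = 0.581), and that of both Krt8 and Krt19 lay below 0 with either airway score as a covariate. A processed copy of Krt8, Krt8-ps, matches 98.6% of its bases over 941 bases, and reads could be divided between them, but the copy held at most 1.18 CPM.

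Within a library, Krt18 was high relative to both other simple keratins in Mut. The Krt8 to Krt18 ratio of FPKM, which cancels the library scaling, was 1.17, 1.24, 1.38, 1.29, 1.36 and 1.45 in WT replicates 1, 3, 4, 5, 6 and 7. In Mut replicates 1, 2, 3, 4, 5 and 7 it was 1.10, 1.13, 1.2, 1.14, 1.14 and 1.03, so 5 of 6 were below every WT library and replicate 3 was not. The mean fell from 1.32 ± 0.104 to 1.12 ± 0.0557, a log2 difference of -0.23 (exact two-sided permutation test, p = 0.00433, adjusted p = 0.00649 over 3 ratios). The Krt19 to Krt18 ratio was 1.08 to 1.24 across WT and 0.680 to 1.06 across Mut, with all 6 Mut libraries below all WT libraries. Its means were 1.12 ± 0.059 and 0.931 ± 0.139, a log2 difference of -0.29 at the smallest p that the exact two-sided permutation test can give (0.00216, adjusted p = 0.00649). With 1 library left out, the log2 difference stayed between -0.26 and -0.20 for Krt8 and between -0.33 and -0.20 for Krt19, at exact p-values up to 0.00866. The Krt15 to Krt5 ratio, by contrast, had a log2 difference of -0.14 with an exact p of 0.805, and its sign turned without WT replicate 1 or WT replicate 4. These 3 ratios were chosen after the values of the genes were seen.

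**Figure D3:**
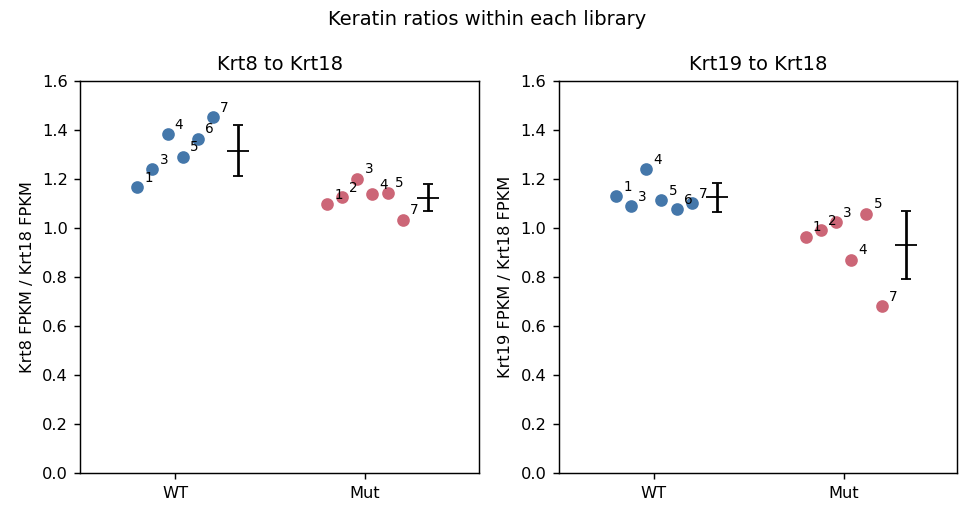
FPKM of Krt8 and of Krt19 divided by that of Krt18 in the same library, with replicate numbers and the mean ± SD (n = 6) beside each group, on linear axes from 0. All 6 Mut libraries lie below all WT libraries for Krt19 to Krt18, and 5 of 6 for Krt8 to Krt18.

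Because Krt8 and Krt18 followed each other across libraries, their upstream sequences are given, credited to RefSeq on GRCm38.p6, 5' to 3' on the strand of each gene and ending where the annotated gene begins in GENCODE. The Krt8 stretch is chr15:102004483-102004592 (minus strand) and the Krt18 stretch chr15:102027966-102028179 (plus strand). Capitals mark matches to TATAAA, the GC box GGGCGG, the AP-1 motif TGANTCA, the grainyhead motif AACCNGTT or the composite TGATGNAA bound by ATF4 in amino acid stress, searched on both strands over the 250 bases before the RefSeq start.
Krt8: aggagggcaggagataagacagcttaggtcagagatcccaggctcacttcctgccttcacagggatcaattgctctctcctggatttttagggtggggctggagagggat
Krt18: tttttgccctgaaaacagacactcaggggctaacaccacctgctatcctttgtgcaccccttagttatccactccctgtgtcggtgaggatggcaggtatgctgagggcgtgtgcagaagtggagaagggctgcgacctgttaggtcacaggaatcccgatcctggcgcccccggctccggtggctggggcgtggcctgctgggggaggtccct
Neither stretch has capitals, nor does either full window of 250 bases hold a match. Of 32851 mouse promoters in the same table, 12.4% hold TATAAA, 32.7% the GC box, 6.75% the AP-1 motif, 1.79% the grainyhead motif and 3.45% the composite. A RefSeq promoter was found for 6 of the 10 genes (Areg, Cldn4, Krt18, Krt5, Krt8 and Sfn), and Krt5 likewise held no match. Sfn held the grainyhead motif and the ATF4 composite once each, and Areg held TATAAA and a GC box.

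Cldn4 encodes claudin 4, a sealing protein of tight junctions that alveolar cells raise after injury, and has a single exon on chromosome 5 (134945119 to 134946934, minus strand). Its WT values were 6.2, 4.07, 6.53, 4.35, 6.17 and 4.32 CPM, and its Mut values 9.29, 4.23, 7.27, 3.24, 5.41 and 7.68 CPM, with Mut replicates 1, 3 and 7 above all WT libraries and replicate 4 below them. The means of 5.27 ± 1.14 and 6.19 ± 2.29 CPM gave a log2 fold change of 0.23 (interval -0.25 to 0.72, edgeR adjusted p = 0.534). Across libraries Cldn4 followed the airway ciliated markers, with r of 0.93 and rho of 0.90 within groups (permutation adjusted p = 0.0029 and 0.0106), and r of 0.90 without the 2 farthest libraries. Cldn4 followed the airway secretory markers nearly as closely (r 0.91, rho 0.86, permutation adjusted p = 0.0029 and 0.0181). With the gland list Cldn4 had r of 0.90 (permutation adjusted p = 0.0199) and rho of 0.80 (permutation adjusted p = 0.0810). With the airway secretory and ciliated score as a covariate its log2 fold change was -0.29, and with the gland score -0.51. Its upstream window, chr5:134946935-134947184 on the minus strand, is shown because it holds the AP-1 motif at 2 places, 240 to 234 and 158 to 152 bases before the start, and a GC box 44 to 39 bases before it, all in capitals.
Cldn4: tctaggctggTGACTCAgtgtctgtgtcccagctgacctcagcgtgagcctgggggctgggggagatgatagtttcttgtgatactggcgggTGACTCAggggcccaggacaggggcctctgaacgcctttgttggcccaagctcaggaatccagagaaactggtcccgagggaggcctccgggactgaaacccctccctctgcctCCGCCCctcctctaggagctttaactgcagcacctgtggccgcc

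Among 12 tested claudins the median log2 fold change was 0.18, and 1 was called, beside 9.89% of all entries. Claudin 12 (Cldn12) rose from 46.5 ± 2.99 to 60.6 ± 3.53 CPM (log2 fold change 0.38, standard error 0.07, adjusted p = 0.00429 by edgeR), with all Mut libraries above all WT libraries, and it kept the call with any 1 library left out. Cldn3, another sealing claudin, stood at 54.8 ± 8.43 and 64.9 ± 12 CPM (adjusted p = 0.204). Cldn22 had no read in any library.

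Sfn encodes 14-3-3 sigma, the stress-induced 14-3-3 protein of epithelia, on chromosome 4 (133600556 to 133602168, minus strand). WT libraries held 16.4, 16.2, 19.6, 18.7, 19.9 and 17.0 CPM, and Mut libraries 14.7, 19.0, 30.8, 16.2, 13.6 and 13.7 CPM. One library, Mut replicate 3, was high, while Mut replicates 1, 5 and 7 were below every WT library. The means were the same to 3 digits, 18.0 ± 1.65 and 18.0 ± 6.60 CPM, with a log2 fold change of 0.00 (interval -0.37 to 0.37, edgeR adjusted p = 0.999) whose sign turned under most other settings and which was -0.22 without Mut replicate 3. None of the 7 tested 14-3-3 genes was called (smallest edgeR adjusted p 0.366, for Ywhaq), and their median log2 fold change was 0.04. Near copies Gm5279 and Gm7850 held at most 0.268 CPM.

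Mdk encodes midkine, a heparin-binding growth factor that is high in the developing lung, on chromosome 2 (91929805 to 91932297, minus strand). It stood at 17.7, 17.5, 27.4, 22.8, 19.5 and 17.0 CPM in WT replicates 1, 3, 4, 5, 6 and 7. In Mut replicates 1, 2, 3, 4, 5 and 7 it stood at 12.9, 12.5, 19.0, 14.2, 8.78 and 12.2 CPM. All Mut libraries but replicate 3 were below the whole WT range. The mean fell from 20.3 ± 4.08 to 13.3 ± 3.35 CPM, a log2 fold change of -0.61 (standard error 0.16, interval -0.96 to -0.26) called by edgeR's quasi-likelihood test (adjusted p = 0.0291). With 1 library left out it ran from -0.74 to -0.51 and was called in 6 of 12 fits, and not when WT 4, WT 5, WT 6, Mut 1, Mut 2 or Mut 5 was dropped (largest adjusted p 0.0705). Across libraries Mdk had a within-group r of 0.02 with the airway gland score, and with that score as a covariate its log2 fold change was -0.63 (adjusted p = 0.141).

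Of 15 genes for midkine, its relative pleiotrophin (Ptn) and their receptors, all were tested, 1 was called higher and Mdk lower. Beside these, 4.57% of all entries were called higher and 5.31% lower. The median log2 fold change of the 15 was 0.04. The receptor phosphatase Ptprz1 rose from 5.58 ± 1.07 to 11.5 ± 3.38 CPM (log2 fold change 1.05, standard error 0.19, edgeR adjusted p = 0.00492), with no overlap between groups, and kept its call with any 1 library left out. With the gland score as a covariate it was 0.59 (adjusted p = 0.119), and on log2(FPKM + 1) it was 0.35 (adjusted p = 0.0508). Log2 fold changes in the edgeR fit were 0.30 for Notch2 (adjusted p = 0.0762), -0.36 for Itga4 (adjusted p = 0.136) and 0.23 for Ptn (adjusted p = 0.445).

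Areg encodes amphiregulin, a ligand of the EGF receptor made by injured epithelium and by type 2 innate lymphoid cells, on chromosome 5 (91139599 to 91148432, plus strand). Its WT values were 2.83, 8.43, 6.25, 7.26, 5.29 and 4.49 CPM, and its Mut values 2.52, 2.09, 6.02, 8.86, 3.89 and 25.3 CPM. Mut replicate 7 stood far above all other libraries, and the rest overlapped. The means of 5.76 ± 2.0 and 8.11 ± 8.77 CPM gave a log2 fold change of 0.51 (interval -0.67 to 1.68, edgeR adjusted p = 0.578), which turned to -0.30 without Mut replicate 7. Among markers of type 2 innate lymphoid cells, mast cells and basophils, 1 of 7 tested was called, beside 9.89% of all entries. It was Gata3, which fell from 11.5 ± 1.79 to 8.31 ± 1.29 CPM (edgeR adjusted p = 0.0346). Cpa3, Ms4a2, Hdc and Kit lay below 0 and Il1rl1 (log2 fold change 0.17) and Calca (0.51) above 0, none of them called. All 10 lymphocyte markers were called lower as well, and the part of lymphocytes in the Gata3 value was not tested. Il5 and Il13 averaged under 1 CPM in both groups.

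The receptor of amphiregulin was called higher in Mut. Egfr rose from 31.9 ± 6.38 to 64.2 ± 8.45 CPM, a log2 fold change of 1.01 (standard error 0.13, interval 0.74 to 1.28, edgeR adjusted p = 0.00051), the WT libraries lying between 22.8 and 39.8 CPM and the Mut libraries between 53.1 and 74.6 CPM. It stayed called with any 1 library left out and under every one of the 15 other settings, at log2 fold changes of 0.76 to 1.10. Tgfa, another EGF receptor ligand, went from 25.1 ± 1.85 to 31.7 ± 4.84 CPM (log2 fold change 0.33, adjusted p = 0.0437), but kept the call in only 3 of 12 fits with 1 library left out, those without WT replicate 1 or Mut replicate 1 or 3. Hbegf, a further ligand, was at log2 fold change -0.39 (adjusted p = 0.0667), and Erbb3 and Erbb4, partner receptors, at 0.39 (adjusted p = 0.0586) and 0.86 (adjusted p = 0.0640). Of 11 tested members of the family 2 were called higher, beside 4.57% of all entries, and none lower. Their median log2 fold change was 0.17, and the ligands Ereg and Epgn averaged under 1 CPM.

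In the wider list of 30 transitional state genes, 29 were tested, 2 were called higher and 1, Mdk, lower, at a median log2 fold change of 0.12, a count near the 9.89% called among all entries. Nupr1, a stress-induced chromatin protein, rose from 69.9 ± 9.98 to 137 ± 41.6 CPM (log2 fold change 0.97, standard error 0.17, edgeR adjusted p = 0.00342). Gdf15, a secreted stress cytokine, rose from 0.694 ± 0.108 to 1.84 ± 1.08 CPM (1.41, standard error 0.35, adjusted p = 0.0210). Both kept their calls with any 1 library left out. Nupr1 lost its call in 2 of 15 other settings, the replicate block (adjusted p = 0.0665) and the gland score (adjusted p = 0.0574). Gdf15 lost its call in 6 of 14, with log2 fold changes down to 0.46 on log2(FPKM + 1) (adjusted p = 0.116). Both are also targets of the transcription factor ATF4 in amino acid stress. Not called were Cdkn1a, the p21 cell cycle inhibitor (log2 fold change 0.86, edgeR adjusted p = 0.180), and Edn1, endothelin 1 (0.77, adjusted p = 0.0635).

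**Figure D4:**
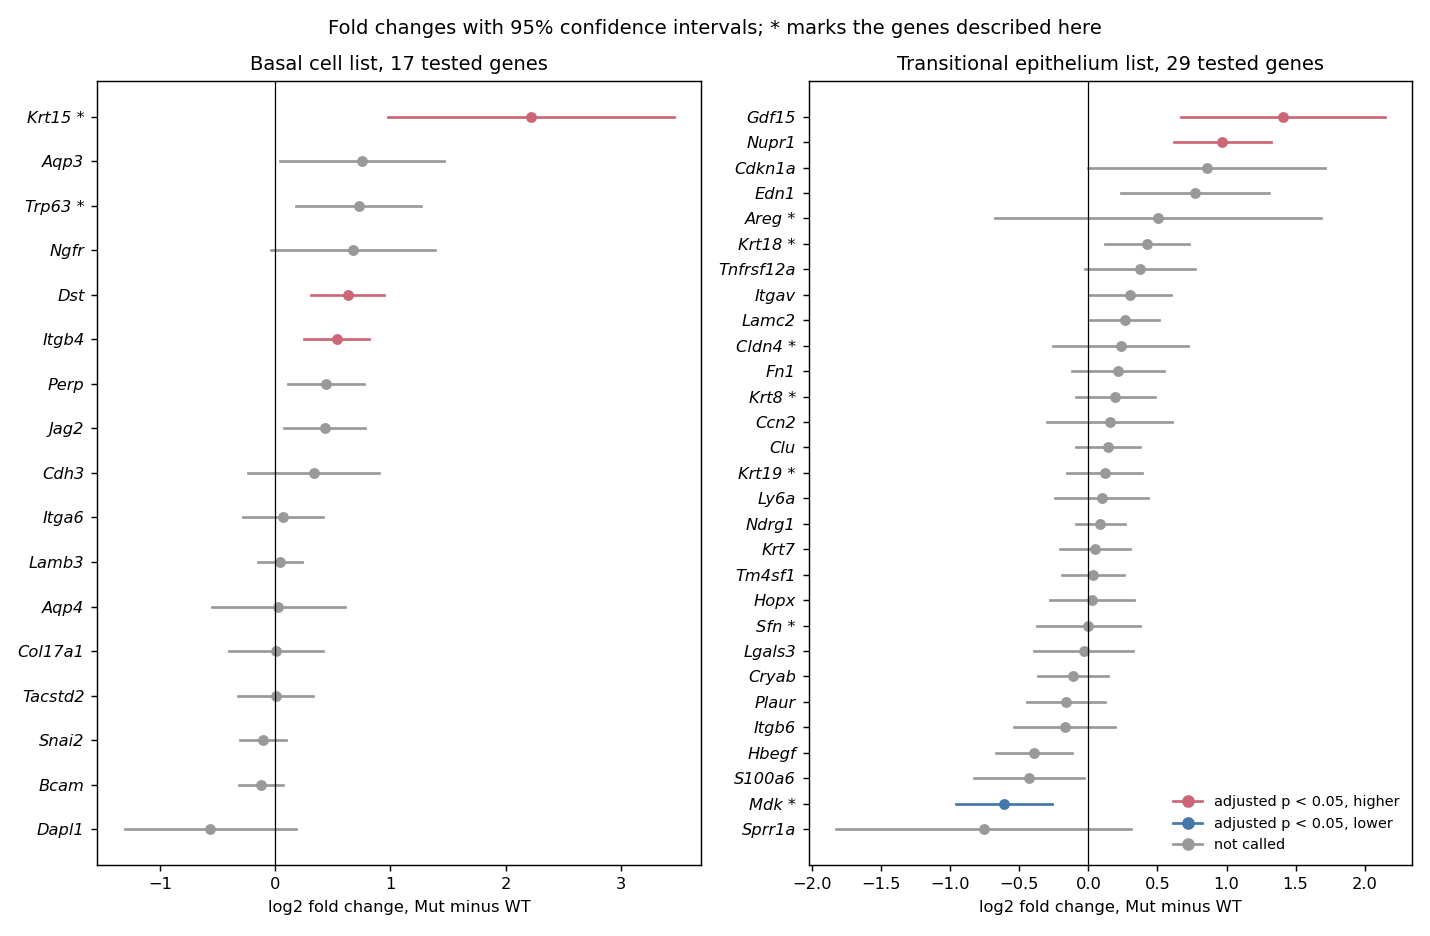
Log2 fold change, Mut minus WT, with its 95% confidence interval for each tested gene of the basal cell list (17 genes) and the transitional list (29 genes), coloured by whether the adjusted p is under 0.05 and in which direction. Krt15, Dst and Itgb4 are called in the first panel, and Nupr1, Gdf15 and, below 0, Mdk in the second.

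Among other epithelial keratins 5 of 14 were abundant enough to test, with a median log2 fold change of -0.14. Krt79, a keratin of hair follicle and gland ducts in skin, fell from 5.56 ± 1.82 to 2.68 ± 1.07 CPM (log2 fold change -1.05, standard error 0.26, edgeR adjusted p = 0.0216), a call lost without WT replicate 4 (adjusted p = 0.0505) and with the replicate block (adjusted p = 0.164). Krt7, a simple keratin, was at 277 ± 42.5 and 285 ± 48.3 CPM (log2 fold change 0.05, adjusted p = 0.837).

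Some of the 10 genes varied together between libraries of the same group, and a division of them into groups was not tested. Krt8 followed Krt18 (r 0.94, rho 0.94, permutation adjusted p = 0.0029 and 0.0106; r 0.89 without the 2 farthest libraries) and the general epithelial markers (r 0.95, rho 0.92, permutation adjusted p = 0.0029 and 0.0106; r 0.91 without 2). Krt19 followed Krt18 (r 0.79, rho 0.90, permutation adjusted p = 0.0459 and 0.0138). It followed Cldn4 about as closely (r 0.79, rho 0.89, permutation adjusted p = 0.0459 and 0.0181). Krt19 also followed the airway ciliated markers (r 0.77, rho 0.86, permutation adjusted p = 0.0459 and 0.0182). Krt15 followed Krt5 by r (0.83, permutation adjusted p = 0.0456) but not by rho (0.76, permutation adjusted p = 0.0847), and Trp63 followed Krt15 by neither (r 0.72, permutation adjusted p = 0.0616; rho 0.75, permutation adjusted p = 0.0835). Sfn and Mdk had r of 0.76 (permutation adjusted p = 0.0459) and rho of 0.62 (permutation adjusted p = 0.157), with r of 0.46 without the 2 farthest libraries, so that relation rested on those libraries. In all, 11 of the 145 relations passed by both measures.

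**Figure D5:**
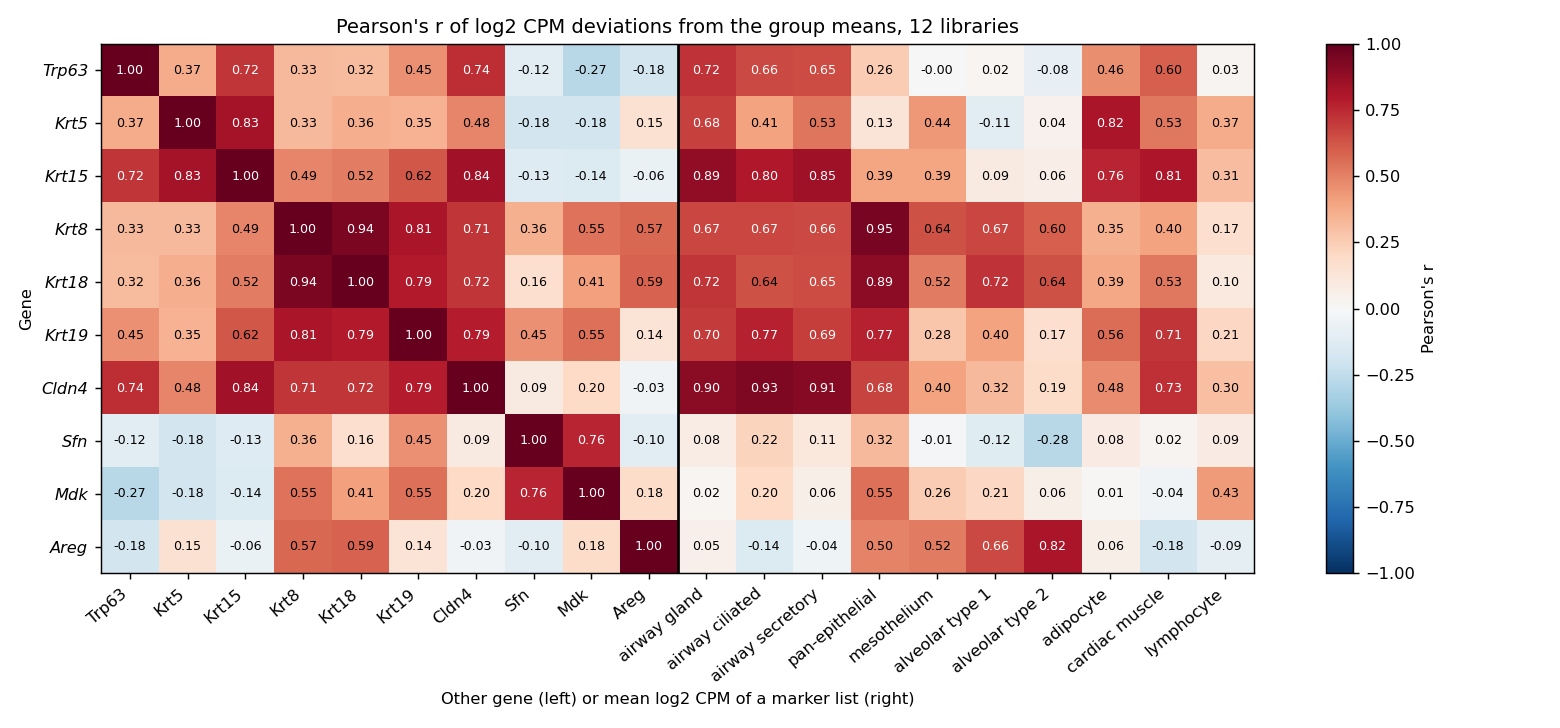
Pearson's r over 12 libraries between the log2 CPM of each gene and that of each other gene or mean score of a cell type list, after the mean of each group was subtracted. The simple keratins and the general epithelial markers have high r with each other, and Krt19 also has r of 0.79 with Cldn4. Krt15 and Cldn4 have high r with the airway gland, ciliated and secretory lists, up to 0.93.

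Over 14235 tested genes with at least 1 CPM on average, the genes nearest to each member by this within-group r differed from member to member. Nearest to Krt15 were the calcium channel Cacna1h (r 0.98), lactoferrin Ltf (0.97), the nasal and airway cytochrome Cyp2a5 (0.97), the alcohol dehydrogenase Adh7 and the cilium-linked kinase Ak8. Cldn4 was nearest to genes of motile cilia (Cfap45, r 0.97, Ttc25, Cfap97d2, Lrrc46 and Efcab10), and so in part was Trp63 (Cfap300, r 0.90, Crocc2, Stpg1, Trp73 and Cckar), Trp73 being the p53 relative of multiciliated cells. Sfn was nearest to Rpn1 (r 0.99), Ugp2, Ywhah, Kdelr2 and Pdia3, of which Rpn1, Kdelr2 and Pdia3 act in the endoplasmic reticulum. Krt8 had Krt18 among its 5 nearest, with AU021092, Prnp, Etfb and Prdx1, and Krt18 had Tomm20 (r 0.97), Hcar2, Rpl15, Mettl23 and Atp5f1. Krt19 was nearest to Odc1 (r 0.97), Pdzd11, Sdhb, Reep5 and Coq7, and Krt5 to Cdh26 (r 0.93), Lrrc39, Lynx1, Frem2 and Hcar1. Mdk was nearest to Jpt1 (r 0.96), Tmem98, Oaz2, Cavin3 and Snrpc, and Areg to Samsn1 (r 0.97), Nipal1, Ctsc, Igfals and Cd44. These values rest on 12 libraries, each gene being the highest of many, and no p is given for them.

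Other cell types that lung material could bring along gave these counts. Beside 4.57% of all entries called higher and 5.31% lower, alveolar type 2 markers had 1 of 10 called higher (Slc34a2), alveolar type 1 markers 1 of 10 (Clic5), airway secretory markers 3 of 10 and ciliated markers 2 of 10. General epithelial (8 tested), mesothelial (7), cardiac (7) and neuroendocrine (6) markers had none called in the edgeR test. Of 4 tested thymic markers Cd8b1, which T cells also carry, was called lower, and the thymic epithelial genes Foxn1 and Psmb11 averaged under 1 CPM.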

How the data were processed

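Raw counts per gene were deposited for 12 libraries by the authors, together with FPKM, which the authors had divided by library total and gene length, as the values show. Poly(A) RNA was selected and reverse transcribed from random hexamers, as the labels' protocols state, and the labels describe no strand-marking step. The aligner and the counter are not given in the sources used here. Build mm10 and limma are named, without role or version, per the submitters' processing notes. Of 59136 entries, 4690 matched no annotated gene and held 0.585% to 0.868% of the counts; 718 of them were tested. Symbols and coordinates came from GENCODE M21, promoters from RefSeq on GRCm38.p6.

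Counts were fitted in R 4.3.3 with edgeR 4.0.16 (TMM, filterByExpr with minimum count 10 and minimum total 15, robust quasi-likelihood test, group as the only term). Benjamini-Hochberg adjustment ran over 19004 entries. The biological coefficient of variation was 17.4%. Intervals are 95% confidence intervals, and counting error alone is smaller in the simple keratins than in Krt5. On simulated counts of 18661 genes with 6 libraries a group, the fit found 21 of 49 genes shifted by 1.5-fold and 40 of 49 shifted by 2-fold. Larger shifts were found in 43 of 49 genes at 3-fold and 46 of 46 at 4-fold, and 9 of its 159 calls were false. Ratios were compared by an exact permutation test, and relations by 100000 permutations of libraries within groups, in Python 3.11.15 with scipy 1.17.1.

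The members, gene lists and tests were chosen with earlier results of these data known. Named genes are all members, the called genes of each list, the next by p up to 4, and for likeness the 5 genes with the highest within-group r. Some genes that the rule selects are left out of the text, so no count is given for the list of p63 relatives. Krt7, Krt14, Krt17, Itga6, Col17a1, Lamb3, Bcam, Ptn, Cdkn1a, Cldn22, Ereg and Epgn were named after their values were seen. Alternatives were RLE, upper-quartile and library-total scaling, no filter, a filter of 1 CPM in 6 libraries, DESeq2 1.42.0, limma 3.58.1 (voom, or log2(FPKM + 1) and log2(FPKM + 0.1) above a mean of 0.1 FPKM), the replicate number as a block, marker scores as covariates, and each library left out. The labels give both groups numbers 1, 3, 4, 5 and 7. Correlations of same-numbered libraries ran from -0.14 to 0.11, with 2 of 5 above 0.1. The main fit did not treat them as pairs, and whether they are is not known.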

Additional observations from a re-analysis of the deposited data

Results flagged for a closer look

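In Sfn, Mut replicate 3 held 30.8 CPM and stood apart from the other 5 Mut libraries, which held 13.6 to 19.0 CPM; its gap to the nearest was 0.688 of the range of the group, above Dixon's critical value for 6 libraries. In Areg, Mut replicate 7 held 25.3 CPM against 2.09 to 8.86 CPM in the others, a gap of 0.708 of the range. Each of the 10 genes was examined in both groups, 20 groups in all, and chance alone would mark about 1 in 20.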

How the results depend on the processing

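Against 1879 entries called in the edgeR fit (869 higher, 1010 lower), the count was 1210 and 1194 in limma on log2(FPKM + 1) and log2(FPKM + 0.1), 1224 with the airway secretory and ciliated score and 4387 with the general epithelial score as a covariate, and 957 to 2368 with 1 library left out. The share of calls that were higher was 46.2%, and 34.3% with upper-quartile scaling, 25.5% with library totals alone and 20.7% in log2(FPKM + 1). Of the 10 genes, 2 were called in the main fit, 4 by DESeq2, 1 without a low-count filter (Mdk), 1 in limma-voom and in each limma fit on FPKM (Mdk), 0 with the airway secretory and ciliated score, and 0 to 4 with 1 library left out. Alternatives added after the data were seen gave 309 entries and 0 members with the airway gland score, 626 entries and 1 member (Krt15) in the 10 libraries with a shared number, and 0 members without WT replicate 4 and Mut replicate 7, the libraries with the highest epithelial sums.

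Whether the numbers pair the samples cannot be decided from the correlations given under processing, as only 5 numbers are shared and no litter was given. With the replicate block, in which only the 10 libraries with a shared number bear on the comparison, 107 entries were called and 0 members, Krt15 being at log2 fold change 2.22 (edgeR adjusted p = 0.081) and Mdk at -0.62 (adjusted p = 0.161).

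Signs turned in genes that were not called. Sfn was -0.0089 with RLE scaling, -0.035 with upper-quartile scaling, -0.061 with library totals, -0.021 without a filter, -0.0035 with the 1 CPM filter, -0.0088 in DESeq2, -0.061 in voom, -0.11 and -0.12 in the FPKM fits, -0.058 with the block, -0.075, -0.070 and -0.086 with the airway, epithelial and gland scores, and -0.22 to 0.070 with 1 library left out. Areg was -0.034 in log2(FPKM + 0.1), -0.29 without WT replicate 4 and Mut replicate 7, and -0.30 to 0.70 with 1 library left out. With the airway and the gland score Cldn4 was -0.29 and -0.51, Krt19 -0.086 and -0.18, and Krt8 -0.0051 and -0.11. The log2 ratio of Krt15 to Krt5 was -0.48 to 0.21 with 1 library left out, and above 0 without WT replicate 1 (0.055) or WT replicate 4 (0.21). The causes were not tested. Depth limits what can be said of Krt5, which had under 10 reads in 7 of the 12 libraries.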
